A study of Mus musculus with 8 samples.

Results

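The liver makes the acute phase proteins of blood plasma, and the genes described here are 34 of the 19642 genes of a liver RNA-seq count table. They were taken by gene symbol as acute phase proteins, receptors and signaling genes of interleukin-1 (IL-1) and IL-6, metallothioneins and the iron hormone hepcidin, and the rule held no threshold on a measured value. All 34 had a row in the table, and all 34 passed the filter on low counts that left 14214 genes for testing. The 34 genes fell into 21 acute phase reactants, 1 iron hormone, 3 metal-handling genes, 5 receptors or receptor-blocking proteins of IL-1 and IL-6, and 4 signaling and transcription factor genes.

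RNA was measured in bulk liver of 4 WT and 4 N-LKO male mice on the C57BL6 background, 1 library per mouse, and mice of both genotypes were fed a chow diet (CD), for 8 weeks by the sample titles and for 16 weeks by the treatment field. N-LKO mice lack Nus1, which encodes NgBR, a subunit of the cis-prenyltransferase enzyme that makes dolichol, the lipid carrier of N-glycosylation. They carry 2 loxP-flanked NgBR alleles and a Cre recombinase under the albumin promoter, which acts in hepatocytes. The study names endothelial, stellate and Kupffer cells as liver cells that express NgBR. Whether the WT mice carried Cre or loxP alleles is not given in the sources used here, nor is the age of these mice.

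In the acute phase response, macrophages that meet damage or infection release IL-1, tumor necrosis factor and IL-6, and hepatocytes answer by making more of a set of secreted plasma proteins. IL-6 binds its receptor IL-6R and the shared subunit gp130, JAK kinases phosphorylate STAT3, and STAT3 drives fibrinogen, hepcidin and other genes together with its own brake, SOCS3. IL-1 acts through NF-kB and C/EBP factors, which raise serum amyloid A and the orosomucoids. Serum amyloid A moves over the widest range in mice, where C-reactive protein (CRP), the marker used in the clinic, is only a modest reactant. Most of the products pass through the secretory pathway, where N-glycans are attached.

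The deleted gene, Nus1, stood at 82.0, 90.4, 90.5 and 89.7 CPM in WT 1 to WT 4 and at 33.3, 36.2, 38.7 and 38.7 CPM in N-LKO 1 to N-LKO 4, where CPM is the count of a gene scaled to library size with TMM factors. Its log2 fold change, N-LKO over WT, was -1.26 (SE 0.075, adjusted p = 3.06e-05 from the quasi-likelihood test of edgeR, with Benjamini-Hochberg correction across the 14214 genes), and every liver was on the side of its label. Library totals ran from 15430519 to 18412201 counts in WT and from 14688404 to 18585412 in N-LKO. Alb, the defining hepatocyte transcript, was between 45845 CPM in WT 1 and 71152 CPM in WT 2. In bulk RNA, fewer cells of a type and less RNA per cell cannot be told apart.

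A RefSeq promoter window matched 30 of the 34 genes, all but Orm1, Hp, Lbp and Cebpd. For Lcn2 and Socs3 the window lay within the GENCODE gene, so sequence before the gene was held for 28, and 7 are printed to show the letters that acute phase transcription factors are known to bind. Each is up to 250 bases before the RefSeq start on build GRCm38.p6, written 5′ to 3′ on the strand of the gene, and capitals mark a match on either strand to 1 of the searched motifs. The motifs were TTCNNNGAA for STAT factors, CTGGGA for the type II IL-6 element, TTGCNNAA for C/EBP factors, GGGA, any base, TT, any base and CC for NF-kB, and TGCACNC or TGCGCNC for the metal response element. Saa1 (chr7:46742981-46743230, minus strand), Apcs (chr1:172895055-172895304, minus strand), Fgb (chr3:83049864-83050113, minus strand), Itih4 (chr14:30886226-30886475, plus strand), Hamp (chr7:30944033-30944279, minus strand) and Mt2 (chr8:94172368-94172617, plus strand) were all high in WT 1, whereas Crp (chr1:172697806-172698054, plus strand) was level across the WT livers.
Saa1: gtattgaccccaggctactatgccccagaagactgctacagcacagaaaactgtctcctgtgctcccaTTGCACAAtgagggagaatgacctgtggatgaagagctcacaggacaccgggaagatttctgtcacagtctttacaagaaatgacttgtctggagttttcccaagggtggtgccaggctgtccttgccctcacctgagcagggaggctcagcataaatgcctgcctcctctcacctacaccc
Apcs: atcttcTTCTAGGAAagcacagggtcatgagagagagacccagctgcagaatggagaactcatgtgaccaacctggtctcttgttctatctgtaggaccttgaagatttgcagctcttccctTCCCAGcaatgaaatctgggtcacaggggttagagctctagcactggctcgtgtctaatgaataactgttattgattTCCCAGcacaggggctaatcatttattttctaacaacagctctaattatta
Fgb: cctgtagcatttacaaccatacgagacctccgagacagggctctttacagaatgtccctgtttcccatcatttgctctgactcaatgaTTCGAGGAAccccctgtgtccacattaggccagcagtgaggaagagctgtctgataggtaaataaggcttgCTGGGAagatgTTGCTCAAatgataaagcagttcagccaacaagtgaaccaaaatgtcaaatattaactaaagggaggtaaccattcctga
Itih4: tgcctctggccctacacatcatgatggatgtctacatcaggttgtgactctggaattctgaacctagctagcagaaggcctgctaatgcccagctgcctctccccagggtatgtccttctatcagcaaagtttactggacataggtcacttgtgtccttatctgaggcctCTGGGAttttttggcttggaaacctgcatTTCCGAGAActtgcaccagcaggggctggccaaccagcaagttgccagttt
Hamp: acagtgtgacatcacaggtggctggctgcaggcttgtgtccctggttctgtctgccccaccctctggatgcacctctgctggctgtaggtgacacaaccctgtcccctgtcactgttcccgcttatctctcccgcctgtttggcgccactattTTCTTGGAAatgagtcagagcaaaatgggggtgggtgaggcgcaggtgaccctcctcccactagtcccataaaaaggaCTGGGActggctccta
Mt2: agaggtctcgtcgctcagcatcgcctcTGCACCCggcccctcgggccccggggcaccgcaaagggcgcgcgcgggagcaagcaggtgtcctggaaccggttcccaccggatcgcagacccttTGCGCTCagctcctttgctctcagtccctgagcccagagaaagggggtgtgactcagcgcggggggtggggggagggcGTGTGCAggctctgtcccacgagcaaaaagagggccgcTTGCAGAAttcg
Crp: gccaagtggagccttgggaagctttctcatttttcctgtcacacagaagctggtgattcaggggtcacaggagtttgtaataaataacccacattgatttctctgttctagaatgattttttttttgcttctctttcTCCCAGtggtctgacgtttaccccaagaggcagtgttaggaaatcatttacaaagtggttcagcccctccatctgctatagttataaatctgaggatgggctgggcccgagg

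The STAT letters were in 7 of the 30 promoters (Apcs, Fga, Fgb, Hamp, Itih4, Socs3 and Steap4), a share of 23.3%, and in 7.18% of all 27025 promoters. The C/EBP letters were in 13 of 30 (43.3%), among them all 4 Saa genes, Lcn2, Orm2 and Orm3, and in 9.55% of all promoters. The type II element was in 12 of 30 (40.0%) and in 26.8% of all. The metal response letters were in 4 of 30 (13.3%; Fgg, Mt1, Mt2 and Orm3), with 3 matches in Mt2, and in 21.3% of all. The NF-kB letters were in 0 of 30 and in 0.94% of all. A match is a description of the sequence, and several motifs are short. The Crp promoter held the type II element but no STAT or C/EBP letters in this window. The letters were not those of the WT 1-high genes alone: Serpina3n and Itih3, both over 2-fold higher there, held none, Lrg1 held the type II element alone as Crp did, and Saa3 and Saa4, level in WT 1, held the C/EBP letters.

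Across the genotypes none of the 34 genes passed the test. With all 8 livers, 0 of 34 were called by edgeR at an adjusted p under 0.05, beside 1.04% of all genes tested, and 0 of 34 had an unadjusted p under 0.05, beside 12.8% of all. DESeq2 and limma-voom also called 0. In 0 of 34 genes were all livers of one genotype above all livers of the other, beside 7.52% of all genes (4.2% with N-LKO above and 3.32% with N-LKO below). The log2 fold changes split into 17 above and 17 below 0, with a median of -0.0068 against -0.0033 over all genes tested, and ran from -0.84 for Socs3 to 0.49 for Saa1. The smallest adjusted p was 0.470, for Il1rn.

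What the livers did show was a wide spread within WT, with 1 animal apart. WT 1 held the highest level of all 8 livers in 23 of the 34 genes and the lowest in 0, where over all tested genes it was highest in 12.7% and lowest in 11.2%. WT 1 was at least 2-fold above the mean of WT 2, WT 3 and WT 4 in 18 of 34 genes, 14 of them among the 21 acute phase reactants, beside 1.48% of all genes. The median ratio of WT 1 to the other WT livers was 2.12 over the 34 genes, 2.28 over the reactants and 0.9945 over all genes. No other liver came near this count: N-LKO 1 was 2-fold above the rest of its group in 3 of the genes, WT 2 and N-LKO 4 in 1 each, and the other 4 livers in 0. What sets WT 1 apart was not tested, and its labels are those of the other WT livers. Livers are numbered here by sample title. The library names number some of them otherwise: that of WT 1 carries the number 4 and that of WT 3 the number 1.

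**Figure D1:**
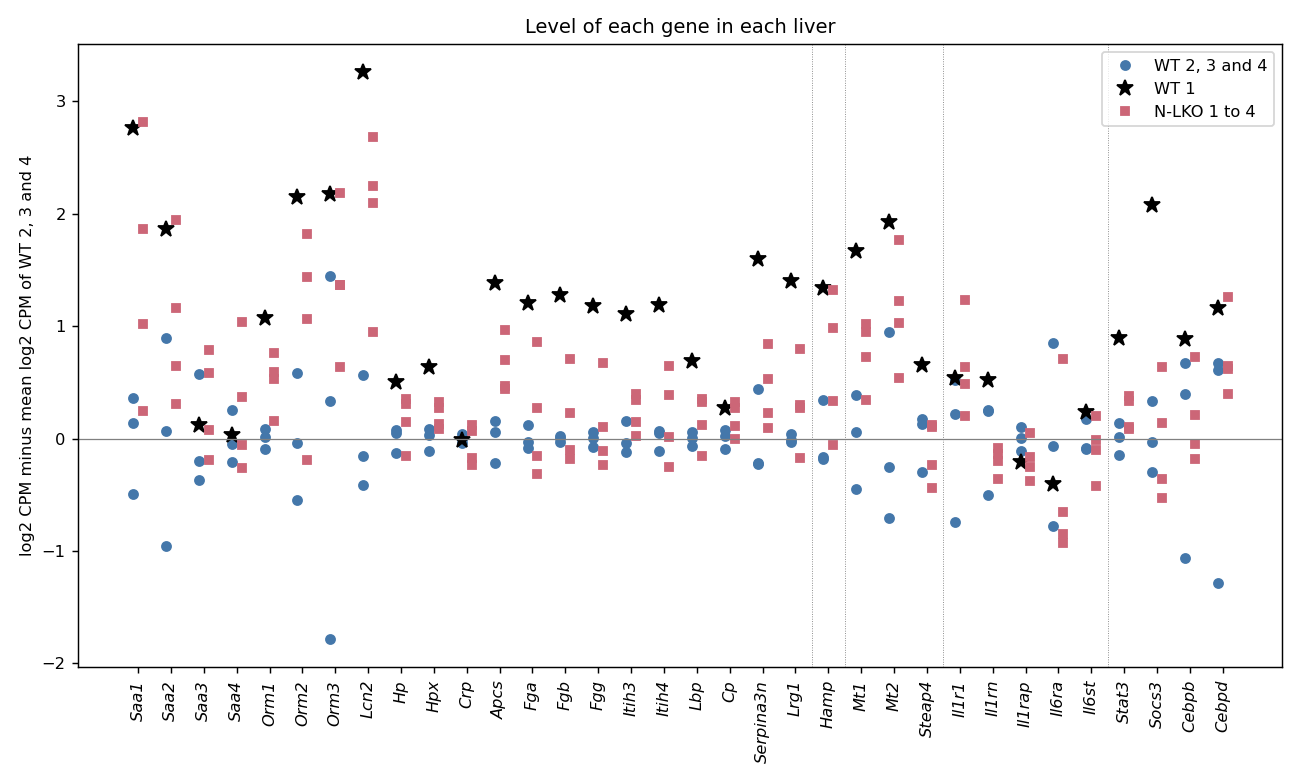
Level of each of the 34 genes in each liver, as log2 CPM minus the mean log2 CPM of WT 2, WT 3 and WT 4 (vertical axis), with genes along the horizontal axis grouped by role between the dotted lines. WT 1 (stars) is the highest of the 8 livers in 23 genes, whereas in Crp and Saa4 it sits among the other WT livers.

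The serum amyloid A genes lie within a short stretch of chromosome 7 and encode apolipoproteins of high-density lipoprotein, of which SAA1 and SAA2 are the inducible forms. Saa1 (ENSMUSG00000074115.5, chr7:46740497-46742980, minus strand, GRCm38) was at 82.2, 8.57, 13.3 and 15.5 CPM in WT 1 to WT 4 and at 85.3, 44.2, 14.3 and 24.4 CPM in N-LKO 1 to N-LKO 4. One liver of each genotype, WT 1 and N-LKO 1, stood at nearly the same high level, and N-LKO 3 was as low as WT 3 and WT 4. The group means were 29.9 ± 34.98 CPM (SD, n = 4) in WT and 42.1 ± 31.4 CPM (SD, n = 4) in N-LKO, a log2 fold change of 0.49 (SE 0.70, adjusted p = 0.83, edgeR). It was -0.12 with N-LKO 1 left out and 1.76 with WT 1 left out. Saa2 (chr7:46751790-46754313, plus strand), its near-identical neighbor, was at 17.2, 2.44, 4.95 and 8.77 CPM in the WT livers and 18.3, 10.6, 5.84 and 7.40 CPM in the N-LKO livers, with the same pair of livers on top. Reads that match both copies may have been split between them by the estimated counts, so the pair was also added up: the sum was 99.4, 11.0, 18.3 and 24.3 CPM in WT and 104, 54.7, 20.2 and 31.8 CPM in N-LKO, a log2 fold change of 0.46 (SE 0.65, adjusted p = 0.83, edgeR).

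The other members of the family were not high in WT 1. Saa4, the constitutive form made steadily by hepatocytes, was at 65.3 to 90.1 CPM over the WT livers and 62.9 to 155 CPM over the N-LKO livers, with N-LKO 4 highest, and WT 1 at 1.01 times the other WT livers. Saa3, which in mice is made mostly by macrophages and fat, stayed low, at 1.75 to 3.37 CPM in WT and 1.98 to 3.91 CPM in N-LKO. Their log2 fold changes were 0.34 (SE 0.24) and 0.29 (SE 0.27), with adjusted p = 0.602 and 0.720 by edgeR.

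The orosomucoids, or alpha-1-acid glycoproteins, are heavily glycosylated carriers of drugs and lipids encoded side by side on chromosome 4. Orm1 was the main form, at 559.8 CPM in WT 1, 249.6 to 281 CPM in the other WT livers and 297 to 449.8 CPM in N-LKO. Orm2 was far lower, at 14.9, 5.003, 2.28 and 3.26 CPM in WT 1 to WT 4 and 6.97, 11.8, 2.92 and 9.03 CPM in N-LKO 1 to N-LKO 4. WT 1 was again the top liver for Orm2, N-LKO 2 and N-LKO 4 followed, and N-LKO 3 was down among WT 3 and WT 4. Orm3 was near the limit of counting, at 1.98, 1.19, 0.127 and 0.552 CPM in WT and 1.98, 1.12, 1.13 and 0.679 CPM in N-LKO. The log2 fold change was 0.17 for Orm1 (SE 0.24, adjusted p = 0.823), 0.26 for Orm2 (SE 0.54, adjusted p = 0.894) and 0.35 for Orm3 (SE 0.57, adjusted p = 0.860) by edgeR. Added up as near-identical copies, the 3 genes gave 0.18 (SE 0.25, adjusted p = 0.824, edgeR).

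Lcn2 encodes lipocalin 2, which binds bacterial siderophores and withholds iron from microbes, and hepatocytes make it on IL-6 and IL-1. It was at 37.1, 5.75, 2.92 and 3.48 CPM in WT 1 to WT 4 and 24.9, 16.6, 7.498 and 18.5 CPM in N-LKO 1 to N-LKO 4. WT 1 was 9.17 times the mean of the other WT livers, the largest such ratio of the 34 genes, yet all 4 N-LKO livers were above WT 2, WT 3 and WT 4. With every liver in the fit the means were 12.3 ± 16.6 CPM (SD, n = 4) in WT and 16.9 ± 7.18 CPM (SD, n = 4) in N-LKO, a log2 fold change of 0.44 (SE 0.70, adjusted p = 0.854, edgeR). With WT 1 left out it was 2.06 (SE 0.38, adjusted p = 0.0385, edgeR), the 1 call among the 34 genes in any of the 8 fits that leave out a liver. That fit drops the liver with the highest Lcn2, which lowers the WT mean.

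**Figure D2:**
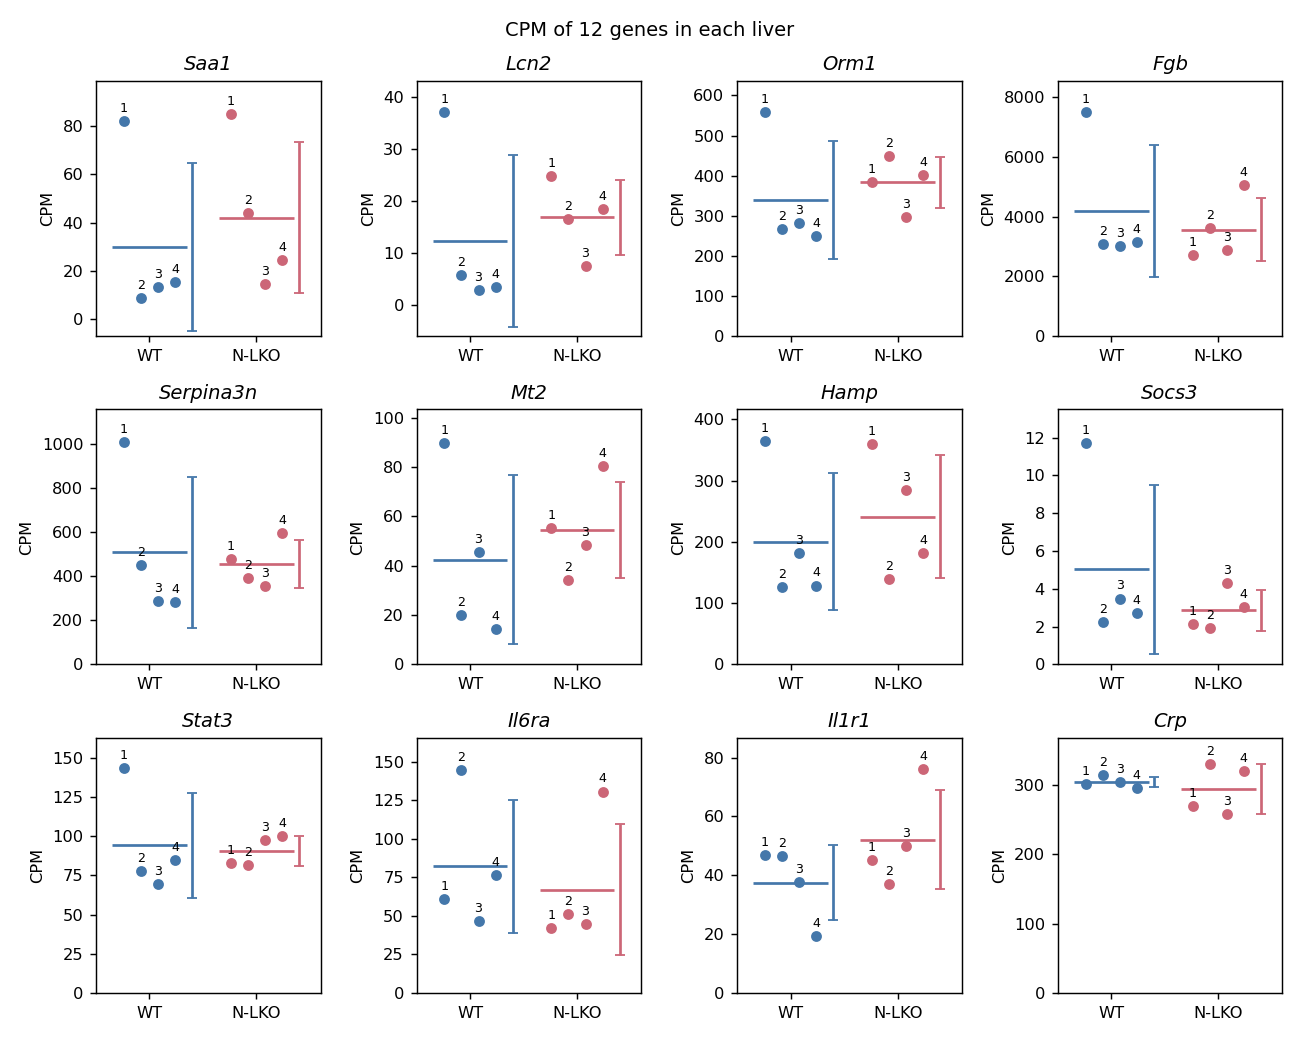
CPM (vertical axes) of 12 of the genes in each WT (blue) and N-LKO (red) liver, numbered as replicates. Horizontal lines are group means and error bars are SD of 4 livers. Lcn2 at 37.1 CPM, Serpina3n at 1011 CPM and Socs3 at 11.7 CPM have their highest liver in WT 1, and Crp is level.

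The fibrinogen chains form the clot and rise with IL-6, and Fga was the most abundant reactant per length. Per kilobase of transcript Fga stood at 2042 CPM in WT and 1816 CPM in N-LKO, above Fgg at 1872 and 1579, Hp at 1372 and 1402 and Fgb at 1099 and 936. Fga was at 9176, 3892, 3751 and 4314 CPM in WT 1 to WT 4 and at 3188, 4808, 3577 and 7216 CPM in N-LKO 1 to N-LKO 4. WT 1 had over 2 times the level of the other WT livers in all 3 chains (2.30 for Fga, 2.43 for Fgb and 2.27 for Fgg), N-LKO 4 came second in each, and N-LKO 1 was lowest in each although it led in Saa1. Fgb was at 3026 to 3143 CPM in WT 2 to WT 4 against 7489 CPM in WT 1, and Fgg at 2354 to 2582 against 5611 CPM. The log2 fold changes of the chains were -0.17, -0.23 and -0.25 (SE 0.33, 0.31 and 0.29), with adjusted p = 0.883, 0.818 and 0.788 by edgeR.

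The inter-alpha-trypsin inhibitor heavy chains, which bind hyaluronan in the matrix, also had WT 1 on top, as did the plasma proteins Serpina3n and Lrg1. Itih3 was at 1744 CPM in WT 1 and at 748 to 905 CPM in the other WT livers, and its N-LKO livers lay at 823 to 1069.7 CPM. Itih4 was at 1571 CPM in WT 1, 636 to 723 CPM in WT 2 to WT 4 and 579 to 1081 CPM in N-LKO. Serpina3n, a plasma inhibitor of serine proteases, was at 1011, 452, 287 and 285 CPM in WT 1 to WT 4 and at 481, 391, 356 and 598 CPM in N-LKO 1 to N-LKO 4. Its WT 1 value was 2.96 times that of the other WT livers and above every N-LKO liver. Lrg1, a secreted leucine-rich glycoprotein of neutrophils and hepatocytes, was at 364 CPM in WT 1, 135 to 142 CPM in the other WT livers and 122 to 239 CPM in N-LKO. All 4 genes had log2 fold changes from -0.16 to -0.13, with adjusted p from 0.874 to 0.907 (edgeR).

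Among the pentraxins, Apcs and Crp parted. Apcs encodes serum amyloid P, the main acute phase pentraxin of mice, and was at 80.5 CPM in WT 1, 26.4 to 34.3 CPM in WT 2 to WT 4 and 41.7 to 60.2 CPM in N-LKO. Crp was at 296 to 314 CPM over the 4 WT livers and 258 to 331 CPM over the 4 N-LKO livers, and its SD of log2 CPM in WT was at the 1.81 percentile of all genes tested. Their log2 fold changes were 0.16 (SE 0.30, adjusted p = 0.880) and -0.045 (SE 0.092, adjusted p = 0.893) by edgeR.

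Hp, Hpx and Cp encode haptoglobin, hemopexin and ceruloplasmin, plasma proteins that hold hemoglobin, heme and copper, and Lbp encodes the protein that hands lipopolysaccharide to CD14. WT 1 was highest in Hp, Hpx and Lbp, at under 2-fold, and not in Cp. Hp was at 2364 CPM in WT 1, 1523 to 1764 CPM in the other WT livers and 1495 to 2134 CPM in N-LKO, so WT 1 was 1.41 times its group. The same ratio was 1.55 for Hpx, 1.62 for Lbp and 1.20 for Cp. Their log2 fold changes lay between -0.034 for Lbp and 0.11 for Cp, with adjusted p from 0.748 to 0.976 (edgeR).

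Hamp encodes hepcidin, the hormone that closes the iron exporter ferroportin, and answers to IL-6 through STAT3 and to iron through BMP and SMAD signaling. It was at 364, 127, 182 and 129 CPM in WT 1 to WT 4 and at 359.6, 139, 285 and 182 CPM in N-LKO 1 to N-LKO 4. Replicate 1 of each genotype was highest, at about the same level, and the remaining livers overlapped. The means were 201 ± 112 CPM (SD, n = 4) in WT and 241 ± 100 CPM (SD, n = 4) in N-LKO, a log2 fold change of 0.27 (SE 0.37, adjusted p = 0.821, edgeR).

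The metallothioneins bind zinc and copper, and rise with zinc, glucocorticoids and IL-6. Mt1 was at 128, 42.0, 52.8 and 29.4 CPM in the WT livers and 77.5, 66.6, 51.1 and 81.8 CPM in the N-LKO livers. Mt2 was at 89.9, 19.9, 45.7 and 14.5 CPM in WT and 55.3, 34.3, 48.2 and 80.5 CPM in N-LKO. Both were highest in WT 1, lowest in WT 4, and second highest in N-LKO 4, whose Mt2 was close to that of WT 1. The log2 fold change was 0.13 for Mt1 (SE 0.37, adjusted p = 0.922) and 0.36 for Mt2 (SE 0.48, adjusted p = 0.818) by edgeR, and 0.23 (SE 0.41, adjusted p = 0.871) for their summed reads. Steap4, a metalloreductase of the plasma membrane, was at 70.1 CPM in WT 1, 36.3 to 50.1 CPM in the other WT livers and 32.8 to 48.6 CPM in N-LKO, a log2 fold change of -0.30 (SE 0.19, adjusted p = 0.554, edgeR).

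The receptor group was mixed: WT 1 was the highest of the 8 livers for Il6st and Il1rn, at under 2-fold above the other WT livers, and not for Il6ra, Il1rap and Il1r1. Il6ra, the IL-6-binding chain, was at 60.6, 144.3, 46.7 and 76.5 CPM in WT 1 to WT 4 and at 42.1, 51.0, 44.5 and 131 CPM in N-LKO 1 to N-LKO 4. WT 2 stood at 2.35 times and N-LKO 4 at 2.85 times the mean of the other livers of their group, and WT 1 was below the mean of its group. Leaving out WT 2 turned the log2 fold change of Il6ra from -0.29 (SE 0.41, adjusted p = 0.826, edgeR) to 0.13, and leaving out N-LKO 4 made it -0.84. Il6st, which encodes gp130, kept to 162 to 204 CPM in WT and 129 to 199 CPM in N-LKO. Il1rap, the accessory chain of the IL-1 receptor and the most abundant receptor gene per length (33.2 CPM per kilobase in WT and 30.4 in N-LKO), was at 134, 167, 155.8 and 143.8 CPM in WT and 139, 119, 130.1 and 161 CPM in N-LKO. Its livers overlapped, with WT 2 highest and N-LKO 2 lowest.

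Il1r1, the signaling IL-1 receptor, had the second largest positive log2 fold change, 0.47 (SE 0.27, adjusted p = 0.521, edgeR), with 19.3 to 46.9 CPM in WT and 37.2 to 76.0 CPM in N-LKO. WT 4 was lowest and N-LKO 4 highest, while the other 6 livers lay together. Il1rn, the secreted antagonist of that receptor, was at 3.87 to 7.85 CPM in WT and 4.25 to 5.15 CPM in N-LKO, a log2 fold change of -0.38 (SE 0.20, adjusted p = 0.470, edgeR).

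In the signaling group Socs3, the STAT3-induced inhibitor of gp130 signaling, had the largest fold change of the 34 genes. It was at 11.7, 2.25, 3.49 and 2.70 CPM in WT 1 to WT 4 and at 2.15, 1.91, 4.31 and 3.06 CPM in N-LKO 1 to N-LKO 4. Apart from WT 1, at 4.16 times its group, the livers of the genotypes overlapped. The log2 fold change was -0.84 (SE 0.51, adjusted p = 0.540, edgeR), and 0.019 with WT 1 left out. Stat3 itself, which STAT3 induces, was at 143.8 CPM in WT 1, 69.7 to 85.2 CPM in WT 2 to WT 4 and 81.8 to 100.4 CPM in N-LKO.

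The C/EBP factors, named for the CCAAT enhancer box, showed a low liver as well as a high one. Cebpb, the most abundant of the group per length (36.2 CPM per kilobase in WT and 32.2 in N-LKO), was at 76.9, 66.2, 19.8 and 54.7 CPM in WT and 68.8, 36.7, 40.2 and 48.1 CPM in N-LKO, with WT 3 lowest by far. Cebpd was at 9.35, 6.38, 1.71 and 6.68 CPM in WT and 6.41, 6.53, 5.51 and 9.98 CPM in N-LKO, and WT 3 was again lowest. WT 3 was also the lowest WT liver for Orm2, Orm3, Lcn2, Hp, Fga, Fgb, Itih3, Il1rn, Il6ra and Stat3. The log2 fold changes of Cebpb, Cebpd and Stat3 were -0.17, 0.22 and -0.056, with adjusted p = 0.891, 0.862 and 0.945 by edgeR.

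The spread can be set beside that of other genes. The SD of log2 CPM between WT livers had a median of 0.605 over the 34 genes and 0.181 over all genes tested, and 22 of the 34 were above the 90th percentile of all genes. Between N-LKO livers the medians were 0.396 and 0.188, with 11 of 34 above the 90th percentile. Without WT 1 the WT median was 0.246 against 0.161, with 10 of 34 above. The median percentile of the 34 genes was 94.9 in WT and 83.2 in N-LKO, and Saa1, Saa2, Orm2, Lcn2, Hamp and Il6ra were above the 95th percentile there and in WT.

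**Figure D3:**
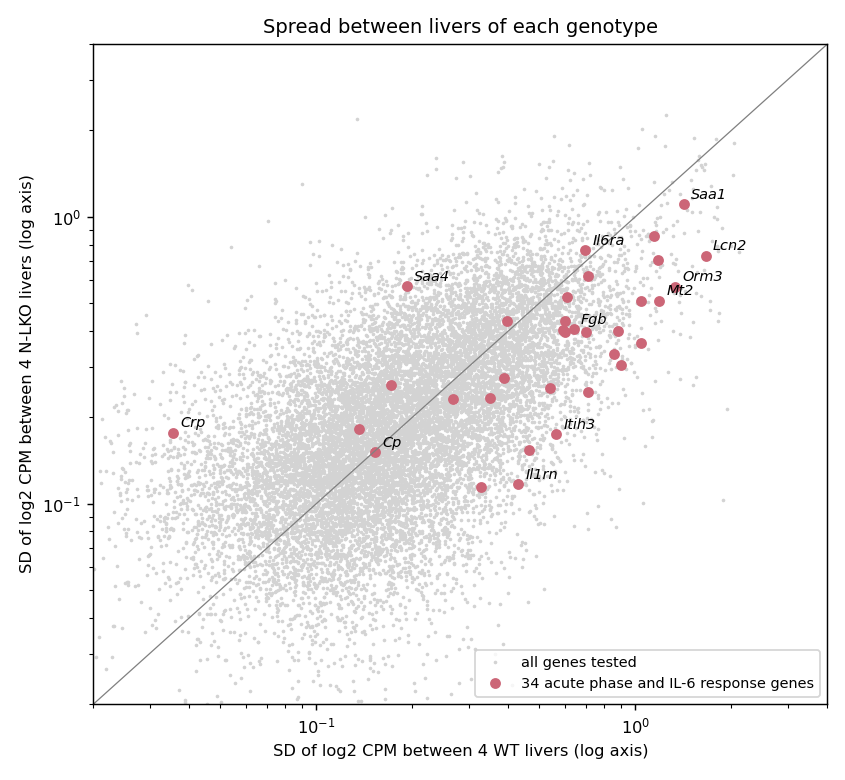
SD of log2 CPM between 4 WT livers (horizontal, log axis) and between 4 N-LKO livers (vertical, log axis) for each gene tested (gray) and for the 34 genes (red); the line marks equal SD. Most red points lie to the right, with a median of 0.605 in WT and 0.396 in N-LKO, and Crp lies far left.

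Each liver was left out in turn to see how far 1 animal carried the comparison. Without WT 1, 28 of the 34 log2 fold changes were above 0, the median was 0.24 (-0.00065 over all genes), and 8 genes had an unadjusted p under 0.05: Lcn2, Apcs, Orm1, Mt1, Saa1, Mt2, Orm2 and Hamp, all higher in N-LKO. That is 8 of 34, beside 13.4% of all genes in that fit. After adjustment Lcn2 was called, beside 0.937% of all genes, and the next were Apcs at 0.65 (SE 0.14, adjusted p = 0.0751) and Orm1 at 0.53 (SE 0.13, adjusted p = 0.113), neither past the threshold. In 4 of 34 genes, Lcn2, Orm1, Apcs and Hpx, every N-LKO liver was above WT 2, WT 3 and WT 4, beside 6.78% of all genes, and in 0 of 34 was every N-LKO liver below them, beside 5.96%. Without any 1 of the other 7 livers, 0 of 34 were called, 12 to 19 log2 fold changes were above 0, and the median stayed between -0.069 and 0.060. The count of positive fold changes thus moved far more with WT 1 than with any other liver. WT 1 was the highest liver in 23 of the 34 genes, so leaving it out lowers their WT means and this shift follows. The p-values of that fit come after removing a liver that is extreme in these same values. They are no separate support for a genotype difference. WT 1 bears a WT label like the rest of its group.

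**Figure D4:**
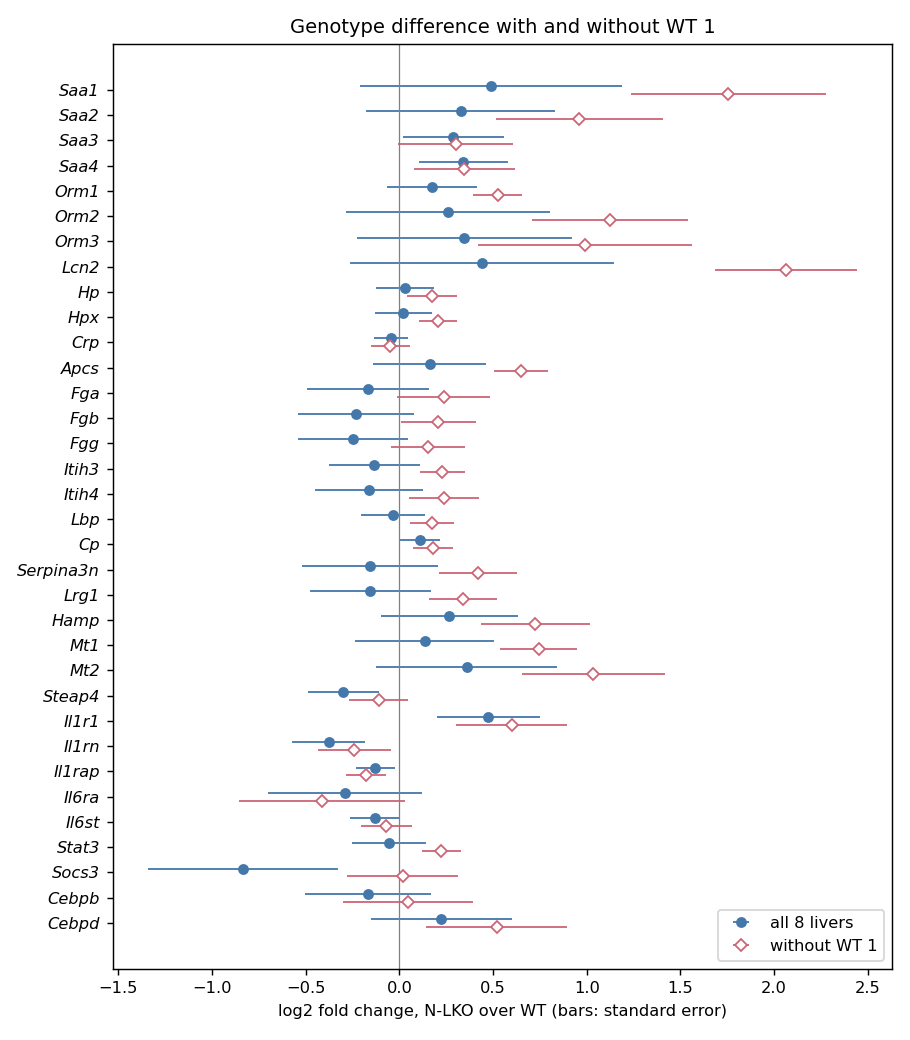
Log2 fold change, N-LKO over WT (horizontal axis; bars are standard errors), of each of the 34 genes with all 8 livers (filled circles) and without WT 1 (open diamonds). With all livers 17 of 34 lie above 0, and without WT 1 28 of 34 do, with Lcn2 moving from 0.44 to 2.06.

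The wider pathway was covered by 7 further lists with 120 genes, of which 109 had a row in the table and 107 were tested. Over these 2 genes rose and 0 fell (edgeR), beside 1.04% called of all genes tested, and 13 had an unadjusted p under 0.05, beside 12.8% of all. The counts of single lists below are to be read against the same shares. In the list of IL-6 family ligands, receptors and JAK-STAT genes, 1 of 22 was called higher: Cntfr, the ciliary neurotrophic factor receptor, at 1.12, 0.875, 0.761 and 1.16 CPM in WT and 2.04, 2.18, 2.06 and 2.31 CPM in N-LKO, a log2 fold change of 1.12 (SE 0.22, adjusted p = 0.0373, edgeR). All 4 N-LKO livers were above all WT livers, at low counts. It was called in 0 of the 8 fits that leave out a liver. Il6, Il11, Lif, Osm, Socs1 and Tnf had no row in the count table under these symbols, so they were not tested. Of the glucocorticoid response genes 1 of 11 rose: Cdkn1a, the p21 inhibitor of the cell cycle, at 47.4, 48.0, 56.7 and 39.1 CPM in WT and 74.9, 67.9, 71.3 and 73.4 CPM in N-LKO, a log2 fold change of 0.59 (SE 0.10, adjusted p = 0.0224, edgeR). Without 1 liver it was called in 2 of the 8 fits.

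In the other 5 lists edgeR called 0 genes. For IL-1, TNF and NF-kB it was 0 of 27 with 4 at an unadjusted p under 0.05, and the largest fold changes were those of Il1a at 0.59 (adjusted p = 0.210) and Il1b, the other IL-1 agonist, at -0.81 (adjusted p = 0.647). The negative acute phase proteins, which hepatocytes make less of in inflammation, had 0 of 12 called and 1 at an unadjusted p under 0.05. That gene was Apoa2, a high-density lipoprotein protein, at 1834, 2226, 2195 and 2240.2 CPM in WT and 1631, 1511, 1649 and 1832 CPM in N-LKO, where every N-LKO liver was below every WT liver (log2 fold change -0.36, adjusted p = 0.162, edgeR). The largest positive value of that list was Serpina6, corticosteroid-binding globulin, at 0.18. Their summed level was lowest in WT 1 of all 8 livers, at 79475 CPM, with the others between 82929 and 109339 CPM, and this rested on Alb. Without Alb the other 11 genes summed to 33631 CPM in WT 1 and to 30104 to 38549 CPM in the other livers. Among them, Ttr at 1363 CPM and Serpina6 at 14.0 CPM were also lowest in WT 1 of all 8 livers. Trf, Rbp4, Apoa1, Apoa2, Gc and Apoh were in WT 1 at 0.826 to 0.968 times the mean of the other WT livers. Ahsg was at 1.09 times and F12 at 1.02 times that mean. Tat, at 1880 CPM in WT 1, lay between 882 CPM in WT 3 and 2890 CPM in WT 2.

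For liver transcription factors the count was 0 of 11 called and 0 unadjusted, and the largest negative log2 fold change was -0.31, for Foxa2. For hepcidin control and iron it was 0 of 18 called and 2 unadjusted, from Slc39a14, a zinc and iron importer that IL-6 raises, at -0.24 to Smad6, an inhibitor of BMP signaling, at 0.59. For zinc and metal response it was 0 of 6 called and 1 unadjusted, from Slc39a4 at -0.38 to Slc39a10 at 0.24. Over the 7 lists DESeq2 called 4 genes, among them Apoa2.

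Markers of other liver cells were read in the same livers, and some of those of bile duct and matrix-forming cells were higher in N-LKO. The 7 cholangiocyte markers summed to 45.1, 35.8, 61.9 and 52.0 CPM in WT 1 to WT 4 and 73.2, 97.8, 155 and 97.2 CPM in N-LKO 1 to N-LKO 4, with 2 of 5 tested called higher, Epcam and Spp1. The 9 stellate cell and fibroblast markers summed to 228, 193, 267 and 279.7 CPM in WT and 276, 385, 388 and 291 CPM in N-LKO, with 2 of 9 called higher, Col1a1 and Lum, and 7 at an unadjusted p under 0.05. The livers overlapped in the second sum and not in the first. In neither sum was WT 1 the highest liver. Of 10 neutrophil markers 7 had a row and 2 passed the filter, and their summed level was 5.77, 1.81, 1.58 and 2.21 CPM in WT 1 to WT 4 and 3.18, 4.16, 3.91 and 4.07 CPM in N-LKO 1 to N-LKO 4, so WT 1 was highest and the 4 N-LKO livers lay above WT 2, WT 3 and WT 4. S100a9, a neutrophil alarmin that hepatocytes can also make, was at 2.03, 0.375, 0.444 and 0.331 CPM in WT and 1.25, 1.39, 1.33 and 1.49 CPM in N-LKO. Ngp, a granule protein at 0 in all 4 WT livers, did not pass the filter, so its genotype difference was not tested. Of the 2 markers tested, 0 were called. Their log2 fold changes were 0.74 for S100a9 and 0.083 for Csf3r, with a smallest adjusted p of 0.604 (edgeR). For Lcn2, itself a neutrophil granule gene, WT 1 was likewise highest and the N-LKO livers lay above WT 2, WT 3 and WT 4, but within N-LKO the order differed, since N-LKO 1 was highest for Lcn2 and lowest for the marker sum. The part of neutrophils in the Lcn2 level was not tested. The 8 Kupffer cell markers summed to 173, 105, 101 and 179 CPM in WT and 109.5, 123, 162 and 98.4 CPM in N-LKO, so WT 1, WT 4 and N-LKO 3 were high. All 8 log2 fold changes of these markers were below 0, with a median of -0.15 and the lowest at -0.71 for Timd4. By edgeR 0 of them were called and 1 had an unadjusted p under 0.05. The 8 monocyte and macrophage markers summed to 43.1, 20.7, 27.4 and 41.7 CPM in WT and 28.5, 43.0, 58.1 and 40.1 CPM in N-LKO, with 1 of 6 called higher, Cx3cr1. Of the 6 tested, 5 had log2 fold changes above 0, and the values ran from -0.48 for Itgam to 2.97 for Cx3cr1. The 8 hepatocyte markers summed to 87718, 116052, 93057 and 102258 CPM in WT and 99489.6, 90752, 90308 and 107125 CPM in N-LKO. WT 1 was lowest in that sum through Alb: without Alb the other 7 markers summed to 41873 CPM in WT 1 and to 36423 to 44899 CPM in the other livers. Whether any of these moved the reactants was not tested.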

How the data were processed

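Total RNA of 4 WT and 4 N-LKO livers was sequenced, with a library for each mouse. The values the authors deposited are expected counts, which estimate the reads of a gene and may hold decimals (52.3% of genes did). The submitters' processing notes name STAR, Partek and mm9, the study's methods TopHat2 with cuffdiff, and the gene positions match GENCODE M21 on GRCm38 for 99.0% of the matched symbols, so the aligner behind the table is uncertain. Whether strand was used in counting is not given in the sources used here, and 9 of the 34 genes overlap a gene on the opposite strand: Fgg, Cp, Hamp, Mt2, Il1rap, Il6ra, Stat3, Cebpb and Cebpd.

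Expected counts were rounded and fitted for all genes together with edgeR 4.0.16 (R 4.3.3): filterByExpr, TMM, glmQLFit and glmQLFTest, two-sided, adjusted by Benjamini-Hochberg over 14214 genes, called at an adjusted p under 0.05. CPM values use TMM scaling; log2 CPM uses a prior count of 2. Group means and SDs are over 4 livers. The p-values test the genotype difference against the variation between livers, estimated with information shared across genes. Levels per kilobase use the exon length of the principal coding transcript in GENCODE. Alternatives were RLE scaling, library totals, other filters, a replicate block, DESeq2 1.42.0, limma-voom (limma 3.58.1) with and without sample weights, robust edgeR, summed paralogs and leaving out each liver. Scripts were tested on simulated data.

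The 34 genes and all lists were chosen with earlier results of these data known. Values in every liver are given for called genes, for genes whose log2 fold change moved by over 0.5 when 1 liver was left out, and for the most abundant gene per length of each role group; of each further list, called genes are named, or else those with the largest rise and fall. Cebpd in every liver and the cell type markers named were added after their values were seen. Some named results are not reported here.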

Additional observations from a re-analysis of the deposited data

Results flagged for a closer look

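A liver is named here when its gap to the nearest other liver of its group, over the range of the group, passed Dixon's 95% critical value for 4 samples. Chance names about 1 in 20 groups where values are normally distributed, which was not tested on either scale. Over 35 genes and both genotypes this is 3.5 of 70 groups, and 9 of 70 were named on log2 CPM and 14 of 70 on CPM. Genes of 1 animal are not independent of each other.

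On log2 CPM, WT 1 stood apart at 9.13 for Orm1, 13.16 for Fga, 12.87 for Fgb, 12.45 for Fgg, 10.62 for Itih4, 6.85 for Lbp and 8.51 for Lrg1, in each case above the other WT livers. It stood apart below them at 6.36 for Nus1, whose other WT values lay within a narrow range. N-LKO 4 stood apart at 7.03 for Il6ra.

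On the CPM scale WT 1 stood apart at 82.2 for Saa1, 560 for Orm1, 37.1 for Lcn2, 80.5 for Apcs, 9180 for Fga, 7490 for Fgb, 5610 for Fgg, 1740 for Itih3, 1570 for Itih4, 116 for Lbp, 364 for Lrg1 and 11.7 for Socs3 (values to 3 significant digits), and at 82.0 for Nus1. N-LKO 4 stood apart at 131 for Il6ra. The cause of the height of WT 1 was not tested.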

How the results depend on the processing

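Calls among the 34 genes held at 0 under every alternative that kept all 8 livers, namely RLE scaling, library totals, no filter, at least 10 counts in every liver (33 of the genes tested), DESeq2, limma-voom with and without sample weights, robust edgeR and both replicate blocks. Leaving out a liver gave 0 to 1 calls among them, 0 to 1 among the further lists, and 71 to 173 over all genes (71 without WT 4, 76 without N-LKO 3, 83 without WT 2, 91 without WT 3). Over all genes the count of 148 became 98 with at least 10 counts in every liver and 371 with DESeq2. Over the further lists the count of 2 became 1 with library totals and 4 with DESeq2.

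Over all genes, deviations from the group mean were at most weakly correlated between same-numbered livers. The correlations were -0.085 to 0.062 by title number and -0.0092 to 0.17 by the number in the library name. They cannot exclude a shared batch, which was not tested. WT 2 and N-LKO 4, both high in Il6ra, share a library number. The replicate block gave 131 calls by title number and 113 by library number over all genes, and 0 among the 34. In each block 2 of the 34 had an unadjusted p under 0.05 (edgeR), beside 12.3% of all genes by title number and 13.6% by library number. By library number the adjusted p of Il6ra was 0.185 (edgeR). Directions that turned, all far from the threshold, were Serpina3n, at 0.025 and 0.053 under these replicate blocks, 0.028 with limma-voom and 0.16 with sample weights, Stat3 at 0.00028 under the title replicate block and 0.058 with sample weights, Itih3 at 0.018 and Lrg1 at 0.022 with sample weights, and Hp at -0.0077 and Hpx at -0.014 with library totals. The cause was not tested. The sample weights were lowest for N-LKO 2 (0.777) and WT 1 (0.787) and highest for WT 4 (1.55).

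Leaving out livers turned the sign of further log2 fold changes in at least 1 fit. The upper end came without WT 1 except for Il6ra (without WT 2), Crp (without N-LKO 3) and Serpina6 (lower end without WT 1, upper without N-LKO 2). The ranges were -0.12 to 1.76 for Saa1, -0.087 to 0.96 for Saa2, -0.020 to 1.13 for Orm2, -0.00099 to 0.99 for Orm3, -0.015 to 0.65 for Apcs, -0.051 to 0.17 for Hp, -0.068 to 0.21 for Hpx, -0.10 to 0.014 for Crp, -0.45 to 0.24 for Fga, -0.45 to 0.21 for Fgb, -0.47 to 0.15 for Fgg, -0.27 to 0.23 for Itih3, -0.32 to 0.24 for Itih4, -0.12 to 0.17 for Lbp, -0.35 to 0.42 for Serpina3n, -0.35 to 0.34 for Lrg1, -0.10 to 0.74 for Mt1, -0.84 to 0.13 for Il6ra, -0.18 to 0.22 for Stat3, -1.10 to 0.019 for Socs3, -0.44 to 0.047 for Cebpb, -0.077 to 0.52 for Cebpd and -0.027 to 0.37 for Serpina6. The summed reads ran from -0.11 to 1.56 for Saa1 with Saa2 and from -0.027 to 0.86 for Mt1 with Mt2. A prior count of 0.5 left 22 of 34 genes in WT and 10 of 34 in N-LKO above the 90th percentile of spread.

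With 4 livers a genotype and this spread, the standard error of the log2 fold change reached 0.70 in Saa1 and Lcn2, so a change of 2-fold in such genes could not be told from the spread. Depth was not the limit for the abundant genes.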
